A study of Homo sapiens with 6 samples.

Results

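The interferon response genes described here are 37 genes that are induced by interferon, or that carry its signal, and that were listed by name. They were matched by gene symbol and gene identifier to the probe sets of an oligonucleotide array, and each gene was represented by its brightest probe set, the one with the highest mean of log2(intensity + 1) over all samples. Of the 37 genes, 36 had a probe set of their own, among 11963 genes measured in all. STAT2, the signal transducer that partners IRF9, was not analysed here. The samples were of MDA-MB-231, an established triple-negative breast cancer cell line, grown in RPMI medium with serum. Baseline cells were sampled at 0 h in 3 replicates, labelled E, 4 and 5. Treated cells were sampled after 12 h in 3 replicates, labelled F, 4 and 5, with dinaciclib, an inhibitor of cyclin-dependent kinases including the transcriptional kinase CDK9. The drug was added from a DMSO solution at a dose that the labels leave out, and whether baseline cells received DMSO is not given. No group was kept for 12 h without the drug, so time in culture, handling and solvent cannot be told apart from the drug. Separate cultures are not stated for the replicates, so the p-values reflect only how much these samples differ, and that spread may be technical.

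Cells sense viral RNA through RIGI and IFIH1, which signal through the adaptor MAVS to IRF3 and IRF7 and so to the interferon genes. Secreted interferon then binds its receptor on the same or neighbouring cells, JAK kinases are activated, and a complex that holds STAT2 and IRF9 binds the interferon-stimulated response element in the promoters of effector genes such as the IFIT, OAS and MX families. Many tumour lines express part of this programme without added interferon, and many of its transcripts and regulators are made and lost quickly.

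The promoters below are printed because most measured genes with a promoter entry held the core of the response element. This was so both for those that fell and for those that did not pass the test. RefSeq promoters (GRCh38.p14, 250 bases before to 50 bases after a start) were found for 26 of the 37 genes, 25 of them measured. The genes without an entry were IRF2, IRF3, IRF7, IFIT2, MX2, OAS2, OASL, GBP2, USP18, TRIM22 and PML. The core was searched as TTTCNNTTTC on both strands, with overlapping matches counted. It was present in 17 of the 25 measured genes (68.0%), against 4.38% of 27305 genes and 3.57% of 35116 promoters in the same table. Of the 11 genes with an entry that fell after dinaciclib, 6 held it (54.5%), and of the 14 that did not pass the test, 11 held it (78.6%). A match is a string of letters and was not tested as a binding site. Each line gives the 170 bases before the first listed start, 5′ to 3′ on the gene's strand, with matches to the core in capitals. GBP1, IFIH1, TAP1 and RIGI fell, and ISG15, IFIT1 and IFI6 did not pass the test. RIGI is shown as a gene that fell with no match in this window.
GBP1: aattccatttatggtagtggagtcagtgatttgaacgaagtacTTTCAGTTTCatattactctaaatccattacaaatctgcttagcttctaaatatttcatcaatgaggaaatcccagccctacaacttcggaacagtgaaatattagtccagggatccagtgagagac
IFIH1: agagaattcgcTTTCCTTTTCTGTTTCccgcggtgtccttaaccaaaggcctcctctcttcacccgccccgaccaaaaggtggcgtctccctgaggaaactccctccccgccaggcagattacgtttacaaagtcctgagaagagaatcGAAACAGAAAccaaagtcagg
TAP1: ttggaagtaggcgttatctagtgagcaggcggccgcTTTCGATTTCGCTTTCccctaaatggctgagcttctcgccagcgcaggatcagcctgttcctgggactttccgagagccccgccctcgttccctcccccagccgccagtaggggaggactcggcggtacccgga
RIGI: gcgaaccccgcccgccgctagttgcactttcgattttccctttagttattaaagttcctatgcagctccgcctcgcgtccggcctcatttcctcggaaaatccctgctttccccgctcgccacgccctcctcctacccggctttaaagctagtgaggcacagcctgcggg
ISG15: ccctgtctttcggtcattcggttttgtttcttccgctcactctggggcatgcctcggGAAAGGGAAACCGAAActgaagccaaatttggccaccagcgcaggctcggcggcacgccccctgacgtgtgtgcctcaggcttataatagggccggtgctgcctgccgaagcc
IFIT1: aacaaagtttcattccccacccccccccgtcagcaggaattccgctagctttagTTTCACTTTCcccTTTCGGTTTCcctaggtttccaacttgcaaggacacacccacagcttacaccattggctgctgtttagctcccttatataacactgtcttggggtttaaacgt
IFI6: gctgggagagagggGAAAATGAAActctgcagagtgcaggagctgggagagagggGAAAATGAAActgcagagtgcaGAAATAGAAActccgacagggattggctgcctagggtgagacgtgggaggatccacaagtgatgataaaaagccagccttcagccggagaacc
The printed windows lie at chr1:89065209-89065378 (minus strand) for GBP1, chr2:162318685-162318854 (minus strand) for IFIH1, chr6:32853705-32853874 (minus strand) for TAP1, chr9:32526197-32526366 (minus strand) for RIGI, chr1:1013327-1013496 (plus strand) for ISG15, chr10:89392453-89392622 (plus strand) for IFIT1 and chr1:27672193-27672362 (minus strand) for IFI6. The 2 matches of ISG15 overlap and begin 113 and 107 bases before the start, and those of IFIT1 begin 116 and 103 bases before it.

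All 6 arrays were used. Median intensities were 53.3, 66.2 and 60.8 at baseline and 43.3, 46.8 and 40.6 after dinaciclib, so the dinaciclib arrays were dimmer as a whole, and the median log2 change over all genes was -0.26. Samples named with a letter differed from those with a number in the 18S ribosomal RNA control, at 736 and 1155 against 8273 to 9061. The line's markers VIM, CD44, AXL, CAV1 and EGFR were bright at baseline (mean intensities of 1002 to 8944), while SPARC lay at 13.0, and EGFR fell to 179 (adjusted p = 0.00902). Of 7 luminal markers, PGR, CDH1 and FOXA1 had baseline means under 16 and ESR1 lay at 26.8, while GATA3, KRT8 and EPCAM were at 349.5, 853.5 and 208.7. Their summed intensity was 1249 to 1603 at baseline and 1257 to 1524 after dinaciclib, and none passed the test. Of 6 leukocyte markers 4 were measured, 3 of them with means under an intensity of 16, and their summed intensity was 58.4 to 75.8 at baseline and 35.5 to 54.3 after dinaciclib. CD14 in that list fell from 24.7 to 2.07. The part of these markers in the results was not tested.

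After 12 h of dinaciclib, 12 of the 36 measured members of the interferon response fell, none rose, and the other 24 missed the threshold. That threshold was an adjusted p of 0.05 (limma on log2(intensity + 1), Benjamini-Hochberg adjustment over 15114 rows). The share of members that fell, 33.3%, stood beside 16.4% of all genes tested, and the share of all genes that rose was 3.54%. At an unadjusted p under 0.05 (limma), 17 of the 36 members were lower and 0 higher, beside 3234 and 835 of the 11963 genes. The members that fell were, from the largest change, XAF1, RIGI, IFI44, OASL, IRF9, EIF2AK2, IFIH1, SP110, IFI16, ISG20, GBP1 and TAP1, and 8 of them fell at least 2-fold. In SP110, the smallest of those 8 (2.13-fold), the fall was matched or exceeded in 16.3% of all genes, past the test or not. The members had a median log2 change of -0.85, and of -0.59 once that of the median gene was taken off. In 17 members (47.2%) every dinaciclib sample lay below every baseline sample, against 30.7% of all genes, and in 1 member, IFI6, every dinaciclib sample lay above, against 9.36% of all genes. The number that fell changed with the sample left out, as did the share of all genes. It was 5 (13.9%) without baseline 4, 5 (13.9%) without baseline 5 and 6 (16.7%) without dinaciclib 5. In those fits 7.51%, 7.73% and 9.76% of all genes fell. Without baseline E, dinaciclib F or dinaciclib 4 it was 10, 9 and 11, beside 15.4%, 12.6% and 10.6% of all genes. XAF1, RIGI, IFI44, OASL and IFIH1 fell whichever 1 sample was left out.

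**Figure D1:**
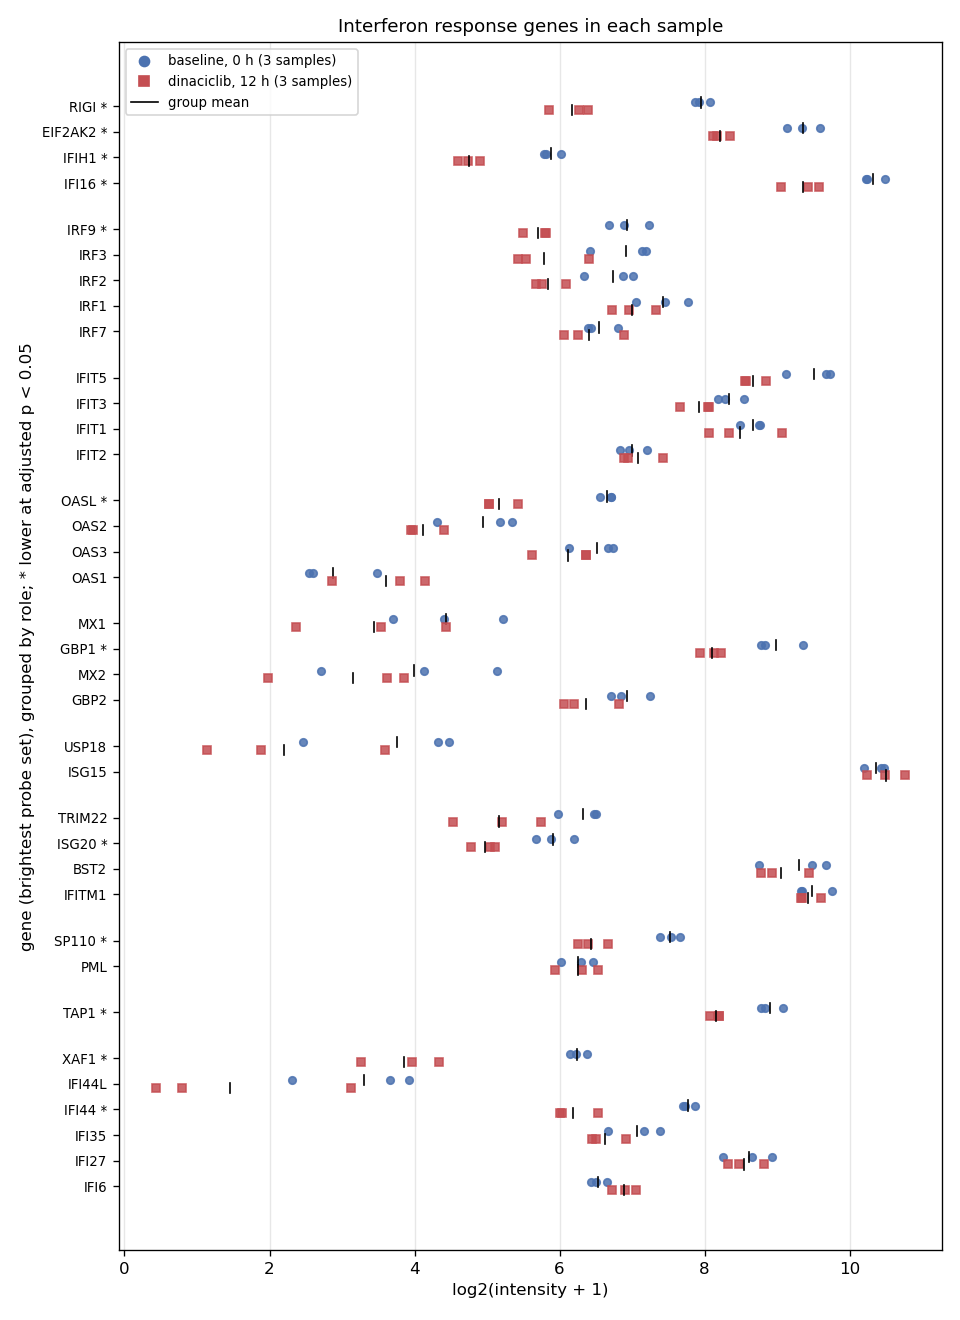
Log2(intensity + 1) of the brightest probe set of each of 36 interferon response genes in 3 baseline samples (circles) and 3 dinaciclib samples (squares), grouped by role, with black ticks at group means and an asterisk at genes that fell. The 2 groups stand apart for the 4 nucleic acid sensors at the top and overlap for ISG15, IFIT1 and IFIT2.

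**Figure D2:**
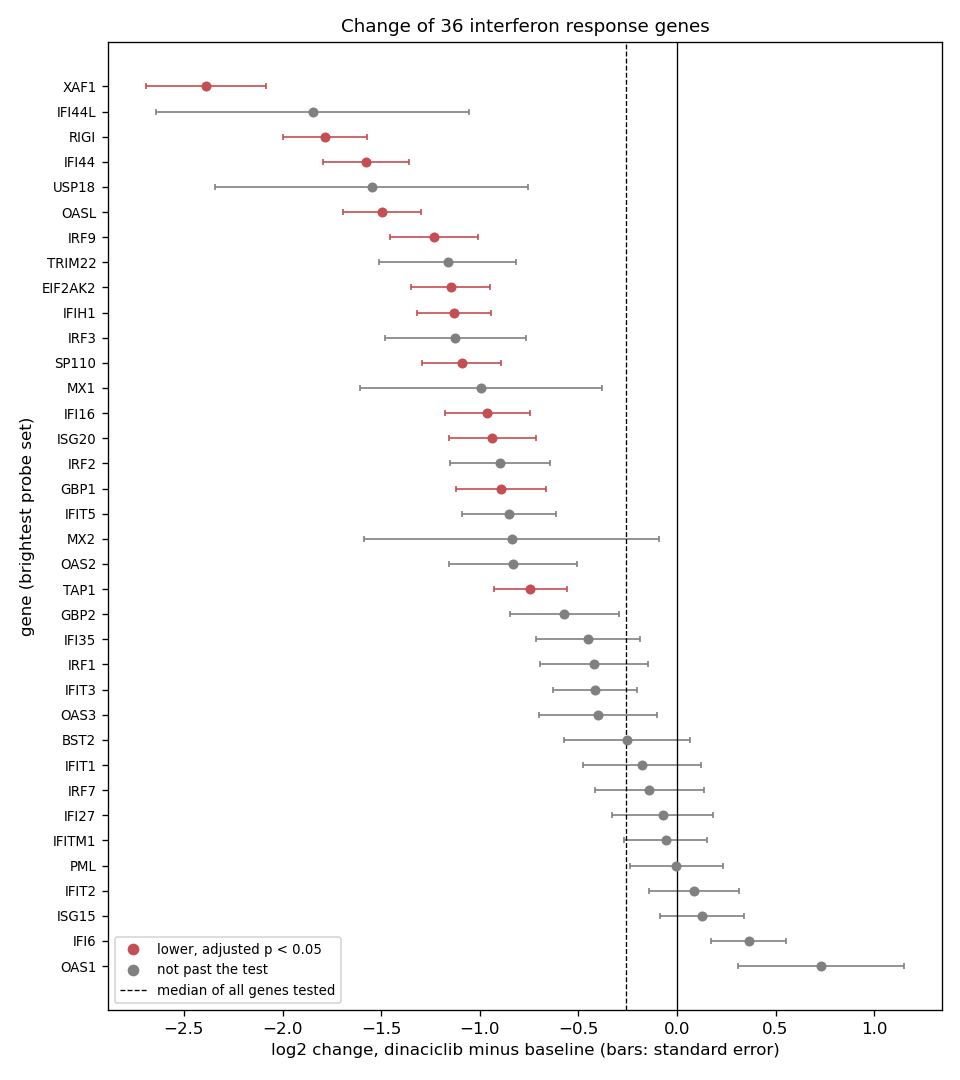
Log2 change (dinaciclib minus baseline) with standard error for each of 36 genes, ordered by size, with the 12 that fell in red and a dashed line at the median of all genes tested (-0.26). The changes run from -2.39 for XAF1 to 0.73 for OAS1, and the widest error bars belong to dim genes such as IFI44L and USP18.

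All 4 members grouped here as nucleic acid sensors fell, where 16.4% of all genes did. Among further nucleic acid sensors, in the upstream list described below, AIM2 fell, while TLR3, TLR7, TLR8, DHX58 and ZBP1 did not pass. RIGI, the sensor of viral RNA ends, read 242, 269 and 232 at baseline (E, 4, 5, the order used throughout) and 83.0, 75.8 and 56.8 after dinaciclib (F, 4, 5). Its groups stood far apart, with a log2 change of -1.78 (standard error 0.21, limma adjusted p = 0.00503), a 3.45-fold lower value. IFIH1, the sensor of long double-stranded RNA also called MDA5, read 55.4, 64.2 and 54.2 at baseline and 28.8, 25.7 and 23.3 after the drug. All 3 values were lower after dinaciclib, with a log2 change of -1.13 (standard error 0.19, adjusted p = 0.0111). The log2 ratio of RIGI to IFIH1 within each array moved from 2.08 ± 0.03 to 1.42 ± 0.15 (SD, n = 3), a larger fall on the probe set of RIGI. The exact permutation test of that shift could not go below its p of 0.1 (adjusted p = 0.267 over 16 pairs of related members). The probe set of IFIH1 was the dimmer of the 2, and an unequal fall of the 2 genes was not established. EIF2AK2, the kinase PKR that halts translation on binding double-stranded RNA, read 565, 768 and 652 at baseline and 276, 326 and 287 after dinaciclib, a log2 change of -1.15 (standard error 0.20, adjusted p = 0.013). It did not pass without baseline 4 or 5 (highest adjusted p = 0.0552). IFI16, a sensor of DNA, read 1209, 1429 and 1197 against 767, 686 and 532, and its log2 change of -0.96 (standard error 0.22, adjusted p = 0.0278) passed in 1 of the 6 fits that left out 1 sample, with adjusted p-values of 0.0422 to 0.0968.

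Among the transcription factors, IRF9 fell and IRF1, IRF2, IRF3 and IRF7 did not pass the test. IRF9, the DNA-binding subunit of the complex that reads the response element, read 102, 150 and 117 at baseline and 55.2, 54.7 and 44.2 after dinaciclib. The 3 dinaciclib values lay close together and below baseline, with a log2 change of -1.23 (standard error 0.22, adjusted p = 0.0141), and leaving out baseline 4, baseline 5 or dinaciclib 5 ended the call (highest adjusted p = 0.0541). A further probe set that is shared by RNF31 and IRF9, and so names neither, read 76.9, 86.4 and 91.7 against 26.1, 22.1 and 30.8. It was lower too, by a log2 change of -1.66 (adjusted p = 0.00574 among all probe sets). IRF3, the factor that first switches on the interferon beta gene, had values of 84.6, 139 and 145 against 41.9, 84.2 and 45.3, with a log2 change of -1.12 (adjusted p = 0.0782). IRF2, which competes with IRF1 for the same sites, had a log2 change of -0.90 (adjusted p = 0.0567). In both genes the dinaciclib values lay below all baseline values. Both passed with letter against number of the samples as a covariate (adjusted p = 0.0458 for IRF3 and 0.0346 for IRF2), with log2(intensity + 16), without dim genes and with a variance trend, and neither passed under the other scalings of the arrays. IRF7, the amplifier of interferon alpha, read 111, 85.7 and 83.2 against 118, 75.5 and 65.9, and IRF1 read 132, 217 and 175 against 160, 123 and 105. Both overlapped between groups, with log2 changes of -0.14 and -0.42 that turned positive after quantile normalization (0.35 and 0.05).

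The IFIT genes encode proteins that bind viral RNA lacking host-type caps. Of the 4, 0 passed the test, beside 16.4% of all genes that fell and 3.54% that rose. The 4 IFIT genes are neighbours on chromosome 10, with 1 further protein-coding gene between IFIT3 and IFIT1. IFIT1 read 434, 429 and 359 at baseline and 537, 323 and 265 after dinaciclib, with dinaciclib F the highest of all 6 samples. IFIT2 read 147, 113 and 123 against 170, 118 and 122. Their log2 changes were -0.18 (standard error 0.30) and 0.09 (standard error 0.23), with overlapping groups. After quantile normalization and median centring the change of IFIT2 was 0.56 and 0.54, which did not pass (adjusted p = 0.205 and 0.181). IFIT3 read 290, 311 and 373 against 267, 263 and 202 with no overlap, a log2 change of -0.42 (adjusted p = 0.242) that was 0.017 after quantile normalization. IFIT5 read 559, 820 and 852 against 380, 462 and 378 with no overlap, and its log2 change of -0.85 (standard error 0.24) missed the threshold (adjusted p = 0.0539). Under 6 other settings, among them quantile normalization (-0.59), IFIT5 did pass. Within arrays the log2 ratio of IFIT3 to IFIT5 shifted by 0.44 and the groups of that ratio did not overlap (exact permutation p = 0.1, the smallest that 3 against 3 samples allow, adjusted p = 0.267).

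The OAS genes encode enzymes that make the messenger activating RNase L, and OASL is a relative without that activity that binds RIGI. OASL fell, while OAS1, OAS2 and OAS3 did not pass. OASL read 103, 104 and 93.1 at baseline and 41.9, 31.6 and 31.8 after dinaciclib. It had among the tightest groups of all members, with a log2 change of -1.50 (standard error 0.20, adjusted p = 0.00619), and passed under all 17 alternative settings (highest adjusted p = 0.0353). OAS3 read 69.4, 101 and 106 against 48.0, 81.2 and 81.5, a log2 change of -0.40 (adjusted p = 0.426) that turned to 0.08 after quantile normalization. OAS2 was dim, at 35.3, 39.6 and 18.8 against 14.8, 14.4 and 20.3 (log2 change -0.83, adjusted p = 0.137), and OAS1 dimmer still, at 5.05, 10.1 and 4.82 against 13.0, 6.24 and 16.7 (0.73, adjusted p = 0.303). The values of OAS1 are near the floor of the array and its other probe set had a log2 change of the opposite sign (-0.83), so no direction is given. OAS1, OAS3 and OAS2 are neighbours, with 0 other protein-coding genes between them in the RefSeq order.

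Among the large GTPases, GBP1 fell and GBP2, MX1 and MX2 did not pass the test. GBP1, a guanylate-binding protein that coats intracellular pathogens, read 455, 653 and 439 at baseline and 245, 298 and 279 after dinaciclib. All dinaciclib values were lower, with a log2 change of -0.89 (standard error 0.23, adjusted p = 0.0415). It passed in 0 of the 6 fits without 1 sample (adjusted p-values of 0.0608 to 0.113). Its neighbour GBP2 read 104, 150 and 114 against 66.0, 112 and 72.2, with overlap (log2 change -0.57, adjusted p = 0.222). MX1 and MX2, which block viral nucleocapsids, were dim and variable, at 12.0, 36.3 and 20.1 against 10.7, 20.6 and 4.14 for MX1 and 34.2, 16.6 and 5.54 against 13.5, 11.3 and 2.96 for MX2. Neither MX1 (-0.99, standard error 0.61) nor MX2 (-0.84, standard error 0.75) could be told from no change at that spread.

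TAP1, the antigen peptide transporter subunit of the class I presentation pathway, read 436, 543 and 457 at baseline and 292, 294 and 269 after dinaciclib. Its dinaciclib values were the most even of all members, and the log2 change of -0.74 (standard error 0.18, adjusted p = 0.0368) was the smallest that passed. The call held in 1 of 6 fits without 1 sample (adjusted p-values of 0.0474 to 0.121), and ended under each other scaling of the arrays, with a change of -0.38 after quantile normalization (adjusted p = 0.0882).

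ISG15, the ubiquitin-like modifier, did not pass the test, and its probe set was the brightest of the list at baseline, although levels of different probe sets are not comparable. It read 1378, 1423 and 1180 at baseline and 1732, 1440 and 1207 after dinaciclib, overlapping groups with a log2 change of 0.13 (standard error 0.21, adjusted p = 0.749). Over the 17 alternative settings the change of ISG15 ran from -0.005 to 0.58, and it passed under 0 of them (lowest adjusted p = 0.0765). USP18, the protease that removes ISG15 and restrains the receptor, read 19.0, 4.499 and 21.3 against 11.1, 2.69 and 1.20. Its log2 change of -1.55 had a standard error of 0.79 (adjusted p = 0.243).

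Of the other antiviral effectors, ISG20 fell and TRIM22, BST2 and IFITM1 did not pass. ISG20, an exonuclease of viral RNA, read 57.8, 72.2 and 49.9 at baseline and 32.0, 26.3 and 33.6 after dinaciclib, a log2 change of -0.94 (standard error 0.22, adjusted p = 0.0316). It passed in 0 of 6 fits without 1 sample (adjusted p-values of 0.0618 to 0.102). TRIM22, a ubiquitin ligase, read 89.5, 88.4 and 62.2 against 35.8, 52.5 and 22.2, without overlap but with a wide spread (log2 change -1.16, standard error 0.35, adjusted p = 0.0664). The membrane proteins BST2, which tethers budding virus, and IFITM1, which blocks viral entry, overlapped between groups. BST2 read 815, 715 and 429 against 696, 487 and 436, and IFITM1 643, 866 and 651 against 648, 776 and 642. A probe set shared by IFITM2 and IFITM1 read 551, 693 and 504 against 663, 760 and 483.

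Of the nuclear body proteins, SP110 fell and PML, by its brightest probe set, did not pass. SP110 read 167, 185 and 201 at baseline and 75.3, 101 and 83.0 after dinaciclib, with no overlap and a log2 change of -1.09 (standard error 0.20, adjusted p = 0.0148). It did not pass without baseline 4, baseline 5 or dinaciclib 5 (highest adjusted p = 0.066). PML, the scaffold of these bodies, read 77.5, 87.0 and 64.1 against 78.3, 91.5 and 60.0, with a log2 change of 0.00 (standard error 0.24).

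Among the remaining interferon-induced proteins, XAF1 and IFI44 fell. XAF1, a pro-apoptotic antagonist of XIAP, read 69.4, 82.1 and 73.6 at baseline and 14.7, 19.3 and 8.61 after dinaciclib. This was the largest change in the list, -2.39 on the log2 scale (standard error 0.30, adjusted p = 0.0056), though 2 of the 3 dinaciclib values were under 16 and the change was -1.61 with log2(intensity + 16). IFI44 read 211, 208 and 233 against 91.8, 64.7 and 63.0, a log2 change of -1.58 (standard error 0.22, adjusted p = 0.00675). Its neighbour IFI44L was near the floor, at 11.7, 3.98 and 14.1 against 0.357, 7.72 and 0.729, and passed only without dinaciclib 4 (adjusted p = 0.0347). IFI6, a mitochondrial protein that opposes apoptosis, read 89.8, 85.2 and 99.8 at baseline and 119, 132 and 105 after dinaciclib. It was the member with all dinaciclib values above baseline, with a log2 change of 0.36 (standard error 0.19) that did not pass as deposited (adjusted p = 0.25) but did after quantile normalization (0.85, adjusted p = 0.0142) and centring on the array median (0.81, adjusted p = 0.0172). IFI27 read 304, 486 and 402 against 319, 449 and 356, and IFI35 read 100, 167 and 143 against 89.6, 119 and 86.4. Both groups overlapped, with log2 changes of -0.07 and -0.45.

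Probe sets of 1 gene could differ. The 36 genes had 57 probe sets of their own, and 12 genes had more than 1. In a fit with every probe set as a row, 18 of the 57 (31.6%) fell and 0 rose, against 13.4% and 3.86% of 22215 probe sets. Both probe sets of OASL fell (-1.50 and -1.43), as did both of GBP1 (-0.89 and -0.94). For IFI16, 2 of 3 fell, and for SP110, 2 of 4. For EIF2AK2, 1 probe set fell from 565, 768 and 652 to 276, 326 and 287, while the other read 387, 402 and 462 against 362, 372 and 359, a log2 change of -0.19 (adjusted p = 0.549). For IFI44 the brighter probe set fell and the dimmer one read 42.5, 39.9 and 26.3 against 51.1, 43.0 and 48.2, a change of 0.40 with no overlap (adjusted p = 0.33). PML differed most. A dim probe set of it read 37.4, 40.9 and 22.6 at baseline and 1.04, 3.70 and 2.25 after dinaciclib, a log2 change of -3.42 (standard error 0.38, adjusted p = 0.00472), and a second fell from 10.8, 27.8 and 3.92 to 1.08, 1.16 and 1.23 (-2.46, adjusted p = 0.0397). Both are near the floor after the drug, and the transcripts that each PML probe set reads were not analysed here. With probe sets averaged by gene in place of the brightest, 9 members (25%) fell, beside 14.6% of all genes. They were 8 of the 12 and PML. EIF2AK2 (-0.67, adjusted p = 0.0516), IFI44 (-0.59, adjusted p = 0.0988), IFIH1 (-0.94, adjusted p = 0.228) and ISG20 (-1.30, adjusted p = 0.0721) did not pass. The second probe set of IFIH1 was near the floor, at 1.73, 12.4 and 5.51 against 1.06, 0.925 and 11.6. That of ISG20 was dim too, at 7.44, 38.4 and 7.33 against 2.52, 3.52 and 4.55 (log2 change -1.66).

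**Figure D3:**
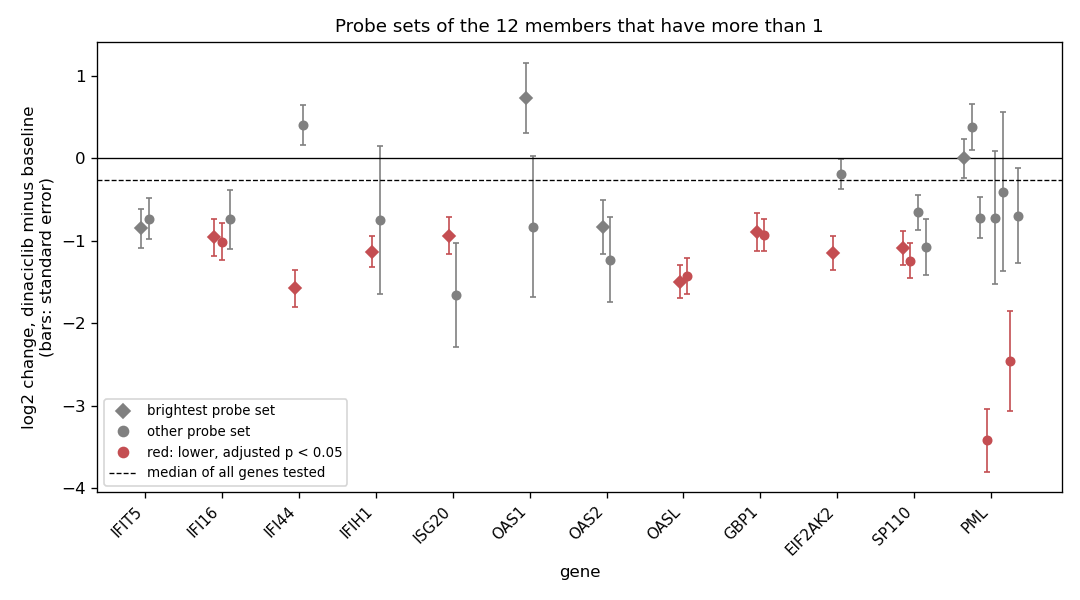
Log2 change with standard error of every probe set of the 12 genes with more than 1 (diamonds for the brightest, circles for the others, red where it fell), with a dashed line at the median of all genes tested. The probe sets of OASL and GBP1 lie together, while those of EIF2AK2, IFI44, OAS1 and PML lie apart, down to -3.42 for a dim PML probe set.

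The scaling of the arrays shifted the members together: quantile and median centring moved them up and spiked controls moved them down. After quantile normalization 10 members fell (27.8%) and 1, IFI6, rose, beside 13.4% and 8.89% of all genes. After centring each array on its median 8 fell (22.2%) and IFI6 rose, beside 10.9% and 16.3% of all genes. With arrays centred on spiked controls 9 fell (25%) and 0 rose, beside 13.3% and 2.02% of all genes. With letter against number as a covariate 15 fell (41.7%) and 0 rose, beside 19.1% and 5.01% of all genes. XAF1, RIGI, IFI44, OASL, IRF9, EIF2AK2, IFIH1 and SP110 fell after quantile normalization, after median centring and with spiked controls. GBP1 and TAP1 passed under none of these scalings but did fall with the covariate. IFI16 did not pass after either centring, nor ISG20 after quantile normalization or median centring. Relative to the median gene, the member median was -0.51 after quantile normalization. It stayed at -0.59 after either centring by construction, because centring shifts every gene of an array by the same amount. Within the 4 numbered samples, EIF2AK2, IFI44, IFIH1, IRF9, OASL and RIGI fell (6 members, 16.7%, against 9.86% of all genes), with RIGI at -1.91 (adjusted p = 0.0376) and OASL at -1.61 (adjusted p = 0.0353), while XAF1 at -2.50 did not pass (adjusted p = 0.0518). The samples named with a letter hold 1 per group and give no test. From E to F the change was -1.53 for RIGI, -1.28 for OASL and -2.17 for XAF1, and the member median was -0.65 beside -0.15 over all genes. IRF1 went opposite ways, by 0.28 from E to F and by -0.77 in the numbered samples (adjusted p = 0.108).

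**Figure D4:**
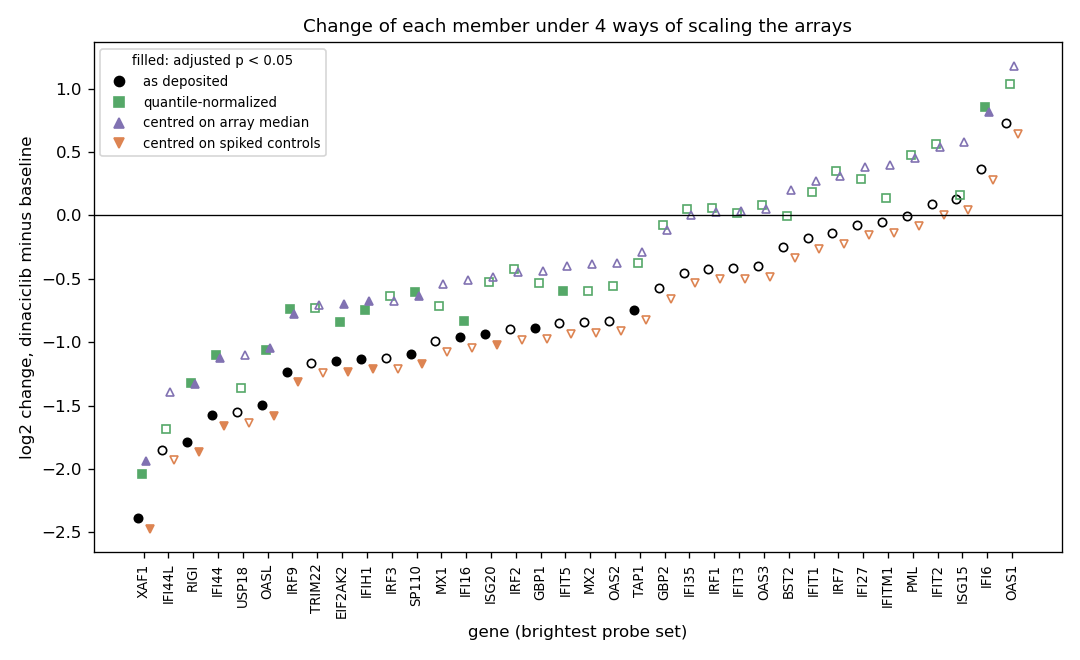
Log2 change of each of 36 genes with the arrays as deposited, quantile-normalized, centred on the array median or centred on spiked controls (filled where adjusted p is under 0.05). The 4 scalings shift all genes together, 9 genes, such as IRF7, IFIT1 and PML, lie below zero as deposited and above it after quantile normalization, and IFI6 is filled above zero under 2 scalings.

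Other lists held 130 genes of interferon signalling, of which 100 were measured. Of these 17 fell and 1 rose, beside 16.4% and 3.54% of all genes, so the count of falls was near the background. Of 14 interferon ligand genes, 1 fell, IFNB1, whose intensities of 5.37, 8.65 and 5.56 against 1.53, 1.95 and 1.91 lie near the floor, and which did not pass with log2(intensity + 16). Of 8 receptor and JAK kinase genes, 2 fell (25%) and 6 did not pass. IL10RB, the shared receptor chain of interleukin-10 and interferon lambda, read 257, 340 and 306 against 71.0, 83.8 and 92.2 (log2 change -1.86, standard error 0.21, adjusted p = 0.00452), and JAK2 had a change of -0.98 (adjusted p = 0.0472) that did not pass in any fit without 1 sample (adjusted p-values of 0.0595 to 0.122). IFNAR1 (-0.39) and IFNAR2 (-0.41), the receptor of interferon alpha and beta, and JAK1 (-0.01) did not pass.

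The sensing pathway upstream of interferon held the largest change among these genes. MAVS, the mitochondrial adaptor through which RIGI and IFIH1 signal, read 321, 319 and 256 at baseline and 53.8, 40.8 and 48.6 after dinaciclib. Its groups did not overlap, with a log2 change of -2.62 (standard error 0.20, adjusted p = 0.00305) and passed under all 17 alternative settings (highest adjusted p = 0.0353). AIM2, a DNA sensor of the inflammasome (-1.77), TLR4, a receptor for bacterial lipopolysaccharide (-1.07), and TRAF6, a ubiquitin ligase downstream of Toll-like receptors (-1.03), also fell, and the NF-kB subunit gene NFKB1 rose (1.58, standard error 0.30, adjusted p = 0.016). TLR4 and TRAF6 lost the call after quantile normalization (adjusted p = 0.0841 and 0.137) and median centring (0.116 and 0.09). With 1 sample left out, TLR4 passed only without baseline 5 (highest adjusted p = 0.119), and TRAF6 did not pass without baseline 4, baseline 5, dinaciclib 4 or dinaciclib 5 (highest adjusted p = 0.0684). NFKB1 lost its call without baseline 5 or dinaciclib 5 (adjusted p = 0.0578 and 0.0571). In all, 4 of 19 genes fell (21.1%), 1 rose (5.26%) and the other 14 missed the threshold, beside 16.4% and 3.54% of all genes. TBK1, the kinase that activates IRF3, read 642, 576 and 579 against 783, 682 and 556 (0.16) and did not pass. Of 11 negative regulators, 3 fell (27.3%, beside the same 16.4% of all genes) and 8 did not pass. Those that fell were PIAS3 (-1.72) and PIAS4 (-1.24), inhibitors of STAT proteins, and PTPN2 (-1.41), a phosphatase of JAK and STAT proteins. PIAS3 passed under all 17 alternative settings, and PIAS4 in only 1 of 6 fits without 1 sample. PTPN2 did not pass without baseline 4 or 5 (highest adjusted p = 0.0556), in the numbered samples alone (adjusted p = 0.0503) or with its 3 probe sets averaged, where the change was -0.62 (adjusted p = 0.142).

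Of 48 further interferon-stimulated genes, 7 fell (14.6%), none rose, and the other 41 missed the threshold, a share near the 16.4% of all genes. TRIM5, a capsid restriction factor (-1.64), DDX60, a helicase that aids RIGI (-1.55), and NMI, a partner of STAT proteins (-1.55), had the largest changes that passed. TRIM5 did not pass without baseline 4, baseline 5 or dinaciclib 5 (highest adjusted p = 0.0598). The list's median log2 change was -0.39, and -0.13 once the median gene's was taken off, beside -0.59 relative to it for the members.

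**Figure D5:**
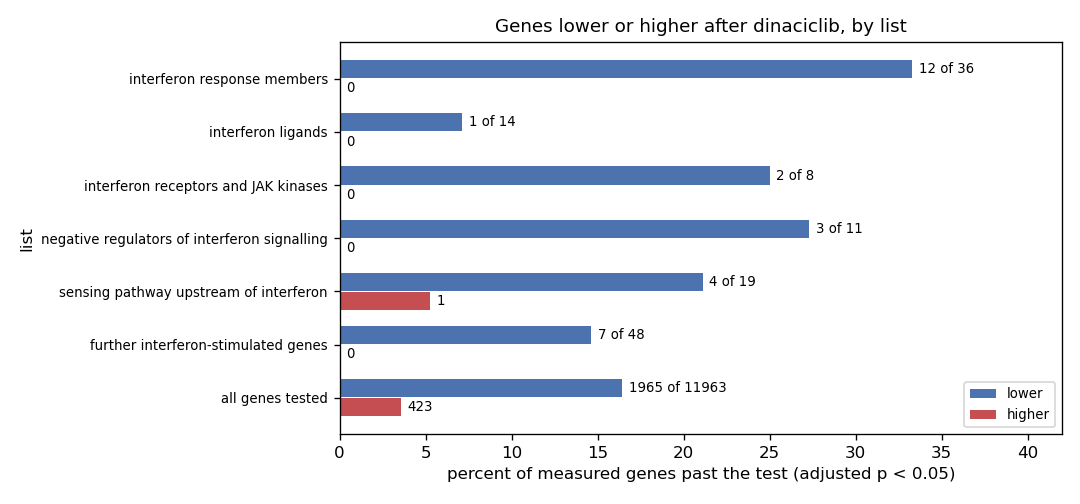
Percent of measured genes that fell (blue) or rose (red) at an adjusted p under 0.05 in the interferon response genes, in 5 other lists of the pathway and over all genes tested, with counts beside the bars. The members stand at 33.3%. The further interferon-stimulated genes stand at 14.6%, near the 16.4% of all genes.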

How the data were processed

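The deposited table gives 1 linear intensity for each of 22277 probe sets in each of 6 samples, as the values show, and the authors' background correction and scaling are not given in the sources used here. Per the labels, total RNA was extracted with Trizol and labelled with biotin. Probe sets were named from the platform annotation through gene identifiers of RefSeq (GRCh38.p14), which gave 19064 probe sets with 1 gene, 1043 with several and 2108 with none, after 62 controls were left out. Values were tested as log2(intensity + 1) with limma 3.58.1 in R 4.3.3, with the group as the only term. The 15114 rows were 11963 genes, each by its brightest probe set, and 3151 probe sets without a single gene, and p-values were adjusted over all of them by the Benjamini-Hochberg method. Fold changes on this scale understate those of dim genes.

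The members, the lists and the tests were chosen with earlier results of these data known. The rule for named genes asked for values by sample of the members past the test on any probe set, with the others by range and count, and for up to 3 of the largest falls and 3 of the largest rises past the test in each other list. The values by sample of the remaining members, and the other named genes of those lists, were added after their values were seen. Alternatives were other scalings, log2(intensity + 16), leaving out genes dimmer than the 40th percentile, a trended variance, other uses of the probe sets of a gene, blocking on the replicate, letter against number as a covariate, the numbered samples alone and each sample left out. The fit on every probe set under these settings and the change from E to F were added after seeing the data. The fit was tested on simulated data. Over genes, the correlation of log2 values was 0.967 to 0.975 for arrays of the same group and 0.942 to 0.951 for arrays of different groups, and 0 pairs of samples were identical. Figures were drawn with matplotlib 3.10.9.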

Additional observations from a re-analysis of the deposited data

How the results depend on the processing

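Of 606 values of the 36 members under alternative settings, 502 kept both direction and side of the threshold, 51 lost the call, 24 gained one and 29 changed sign, all of these in genes not called as deposited. The count of members that fell, 12 as deposited, was 6 in the numbered samples alone and 5 to 11 with 1 sample left out (0 rose), and 16 with log2(intensity + 16), without dim genes (30 members left) and with a variance trend, where 22.4%, 35.3% and 22.4% of all genes fell. Members that rose numbered 1 after quantile normalization and 1 after median centring. The member median, -0.85, was -0.53 after quantile normalization, -0.39 after median centring, -0.50 with log2(intensity + 16) and -0.99 to -0.68 with 1 sample left out. Relative to the median gene, -0.59, it was -0.51 after quantile normalization, -0.36 with log2(intensity + 16), -0.49 without dim genes and -0.73 to -0.45 with 1 sample left out. Of the 57 member probe sets, 18 fell as deposited, 11 after median centring, 7 in the numbered samples and 6 to 14 with 1 sample left out. Over all probe sets 13.4% fell as deposited. By brightest probe set, 10.9% of all genes fell after median centring, 9.86% in the numbered samples and 7.51% to 15.4% with 1 sample left out. Of the other pathway genes, 17 fell as deposited, 27 with log2(intensity + 16), 28 without dim genes, 26 with a variance trend, 10 in the numbered samples and 9 to 18 with 1 sample left out. With 100 measured (fewer without dim genes), these counts stand beside 16.4%, 22.4%, 35.3%, 22.4% and 9.86% of all genes under the first 5 of these settings. Those that rose, 1 as deposited, numbered 8 after quantile normalization, 14 after median centring, 3 with log2(intensity + 16), 3 without dim genes, 2 with a variance trend, 2 with probe sets averaged by gene and 0 to 2 with 1 sample left out, beside 3.54%, 8.89%, 16.3%, 5.39%, 8.9%, 5.64% and 3.42% of all genes for the first 7. Some of these settings fit fewer samples or genes by construction, and beyond that the cause was not tested.

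After quantile normalization and median centring, in that order, the change was 0.054 and 0.03 for IRF1, 0.35 and 0.31 for IRF7, 0.19 and 0.27 for IFIT1, 0.017 and 0.037 for IFIT3, 0.29 and 0.38 for IFI27, 0.14 and 0.40 for IFITM1, 0.083 and 0.05 for OAS3 and 0.48 and 0.45 for PML. IFI35 was at 0.047 after quantile normalization, BST2 at 0.20 after median centring and OAS1 at -0.05 when its probe sets were averaged. With 1 sample left out the changes ranged from -0.38 to 0.03 for IRF7, -0.47 to 0.038 for IFIT1, -0.079 to 0.19 for IFIT2, -0.25 to 0.084 for IFI27, -0.15 to 0.083 for IFITM1, -0.005 to 0.26 for ISG15 and -0.14 to 0.16 for PML.

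The samples 4 and 5 carry the same numbers in both groups, and E and F were taken as a further pair. Deviations from group means correlated at 0.14 for E with F, 0.09 for 4 with 4 and 0.08 for 5 with 5, each the highest for its sample, a hint from the data and not from the design. With this replicate block 12 members fell, 11 of them the same, with TRIM22 gained and ISG20 lost, and 1855 genes fell and 450 rose against 1965 and 423 without it. The number of arrays limits precision, and members near the floor (OAS1, IFI44L, USP18, MX1 and MX2) had standard errors of 0.42 to 0.79.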

Other observations

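A second element of interferon signalling, the core of the gamma-activated site (TTCNNNGAA, searched on both strands), was present in the RefSeq promoters of 10 of 25 measured members (against 9.38% of 27305 genes). It was present in 3 of the 11 that fell (27.3%) and in 7 of the 14 that did not pass the test (50.0%). A match was not tested as a binding site.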
